A study of Mus musculus with 24 samples.

Results

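Liver RNA of 6 mice that ate a purified control diet was described without any contrast between diets. The mice were chosen by their labels, which gave control diet for 6 of the 24 arrays of the series. They were male BALB/c animals, an inbred laboratory strain, bought at 6 weeks of age, kept for 1 week on a non-purified diet and then fed AIN93G, a standard purified rodent diet, for 14 days. The other 3 groups, each of 6 mice also described as male BALB/c, ate AIN93G with 0.1%, 0.5% or 1.0% quercetin, a plant flavonol, for the same time. Quercetin arrays were used here to choose probe sets, to set the common scale, and to ask how far a gene spread within each of those groups. All mice were housed 3 to a cage with the dark period from 0800 to 2000 and were killed under pentobarbital anaesthesia. The cage of each mouse, the hour of death and the feeding state at death were not used here. RNA of each liver was hybridized to 1 array, so a value carries the mouse and its handling together, and the spread between mice cannot be split into animal and technical parts. The mice are numbered 1 to 6 as in the labels, and the numbers have no order.

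Hepatocytes make most of the proteins of blood plasma, among them albumin, clotting factors and apolipoproteins, and they hold the enzymes of bile acid, urea, lipid, heme and drug metabolism. Many of these genes follow feeding, glucocorticoids, growth hormone, iron load or the time of day, so livers of mice on the same food can differ in them. Others, such as the plasma protein genes, are transcribed at a high and steady rate. Heat shock proteins are chaperones that fold other proteins and whose genes are switched on by heat and other protein stress.

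The deposited values were linear intensities of 45101 probe sets. Their median was between 4.78 and 7.58 on the 6 arrays, and the Spearman correlation between arrays had medians from 0.919 to 0.926. Levels below are quantile-normalized log2(intensity + 1) of 18193 genes, 1 probe set each, and SDs are over 6 mice. A difference of 1 on this scale is a factor of 2, somewhat understated for dim genes. Signals of different probe sets are not ordered as transcript amounts, since each probe set binds with its own strength. Mouse 2 stood apart on the first principal component (25.6% of variance, loading 0.889) and mouse 6 on the second (22.3%, loading 0.808). The 18S rRNA probe set also held 0.0234% of the signal in mouse 6 against 0.00431% to 0.00654% in the other 5. Where leaving out either mouse ended a call or moved a count by over 1.5 times, the value without it is given.

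None of the 13 measured hepatocyte markers was at the floor of the arrays, as defined below, and 10 of them were not among the varying genes. Asgr1, a subunit of the hepatocyte receptor for asialoglycoproteins, lay at 10.02 ± 0.09 (SD, n = 6). Hnf4a, a transcription factor of hepatocyte identity, lay at 9.86 ± 0.07. The hepatocyte list as a whole held 2.38% to 2.85% of the signal. Xist, the RNA of the inactive X chromosome, had a mean of 2.67, while Eif2s3y, a Y-linked translation factor, had a mean of 7.001. Eif2s3y lay between 6.96 and 7.03 in control mice but ran from 2.97 to 7.59 within the 0.5% quercetin group. The sex of the quercetin arrays was not tested, and all of them enter the spread within those groups given below.

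A small part of the genes carried most of the signal. The brightest 433 ± 22.8 genes (SD, n = 6) held 50% of the summed signal of the 18193 genes, with 400 in the lowest mouse and 467 in the highest. The 25 brightest held 9.58% ± 0.611, and the 100 brightest held 24.2%. Fabp1, the fatty acid carrier of the hepatocyte cytosol, was first with 0.552% ± 0.0425 of the signal. Its share was 0.521%, 0.513%, 0.534%, 0.558%, 0.553% and 0.631% in mice 1 to 6. Mouse 6 was highest for Fabp1 and the other 5 mice lay close together.

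**Figure D1:**
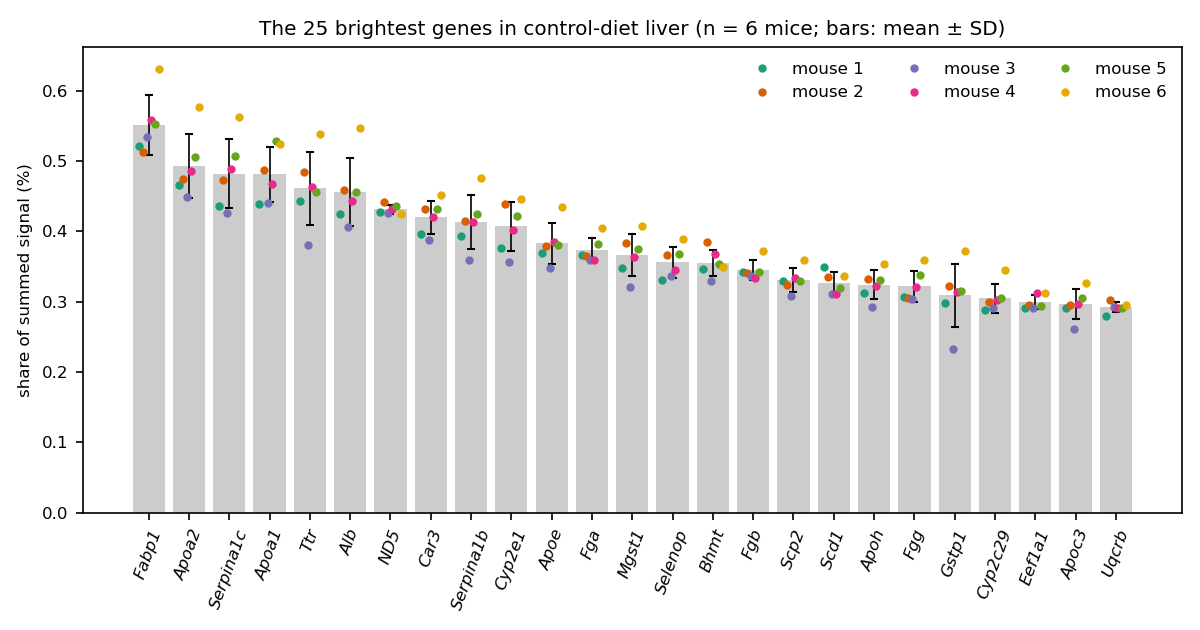
Share of summed deposited signal (y axis, percent) of the 25 brightest genes (x axis) in control-diet liver, with bars for the mean, error bars for the SD and 1 point for each of the 6 mice. Mouse 6 is the highest point for 20 of the 25 genes and mouse 3 the lowest for 16.

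Secreted proteins led the list of bright genes. Apolipoproteins, the protein part of lipoproteins, gave 5 of the 25: Apoa2 (0.493%), Apoa1 (0.481%), Apoe (0.383%), Apoh (0.324%) and Apoc3 (0.296%). The 17 measured apolipoprotein genes together held 2.998% to 3.44% of the signal. Alb, which encodes albumin, held 0.456% ± 0.0487 and Ttr, the carrier of thyroid hormone and retinol-binding protein, held 0.461% ± 0.0518. Serpina1c and Serpina1b, copies of the alpha-1-antitrypsin gene whose probe sets may share signal, held 0.482% and 0.414%. The fibrinogen chains Fga, Fgb and Fgg held 0.373%, 0.345% and 0.322%, and Selenop, the plasma selenium carrier, held 0.356%. Hepatocyte plasma proteins as a list of 22 measured genes held 4.83% ± 0.296. Mouse 6 had the highest share for 20 of the 25 genes, while ND5 was lowest there, Bhmt was highest in mouse 2 and Scd1 in mouse 1. The 25 genes summed to 8.79% in mouse 3 and to 10.6% in mouse 6.

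Metabolic enzymes made up most of the rest. Car3, a carbonic anhydrase abundant in liver, muscle and fat, held 0.420%. Cyp2e1, the cytochrome P450 that oxidizes ethanol, held 0.407% and Cyp2c29, another P450, held 0.305%. Mgst1 (0.367%) and Gstp1 (0.309%) encode glutathione transferases, Bhmt (0.355%) remethylates homocysteine, Scp2 (0.331%) carries sterols, and Scd1 (0.327%) desaturates fatty acids. The 43 measured genes of cytochrome P450 and conjugation held 3.70% ± 0.148. ND5 (0.432%), a mitochondrially encoded subunit of complex I, Uqcrb (0.292%), a subunit of complex III, and Eef1a1 (0.299%), a translation elongation factor, completed the 25. Cytosolic ribosomal proteins held 3.11% ± 0.112 over 48 genes. ATP synthase subunits held 1.39% ± 0.0200 and complex I subunits 1.53% ± 0.0280, so these families differed little between mice. The 3 measured major urinary protein genes, which encode pheromone carriers excreted in male urine, held 0.337% ± 0.0434, ranging from 0.262% to 0.384%.

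Several plasma protein genes were among the steadiest of the bright genes. Each gene's SD between mice was divided by the median SD of genes of nearest mean signal, and the result is called the SD ratio below. Among the 500 brightest genes the lowest ratio was 0.21, for Sdhb, the iron-sulfur subunit of succinate dehydrogenase. Its levels were 10.80, 10.77, 10.80, 10.78, 10.80 and 10.82. The growth hormone receptor gene Ghr (0.27), Serpina1b (0.30), Apoe (0.30), Plg, the plasminogen gene (0.33), Hpx, which encodes the heme carrier hemopexin (0.34), and Car3 (0.34) followed. F9, which encodes clotting factor IX, had a ratio of 0.36 with levels from 9.75 to 9.84. For the very brightest genes the neighbours lie mostly on the dimmer side, where SDs are larger, which lowers their ratios. Median SD fell with signal, from 0.63 at levels of 2 to 4 through 0.15 at 6 to 8 to 0.05 at 12 to 14. How near the brightest probe sets were to the upper limit of the scanner was not tested.

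No detection calls were at hand, so genes that liver is not known to use set the floor. A gene was placed at the floor when it lay below the 95th percentile of 39 olfactory receptor genes on every one of the 6 arrays. That percentile was between 2.96 and 3.40 on the log2 scale. By this rule 5115 of 18193 genes (28.1%) were at the floor, and 8734 (48%) were above it on all 6 arrays. A level at the floor bounds what these probe sets could show, and no statement on absence follows from it. In whole tissue, fewer cells of a type and less RNA per cell cannot be told apart.

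The prolactin, protocadherin, Hox and sodium channel families were most often at the floor. Of 17 measured genes of the prolactin family, hormones mostly of pituitary and placenta, 16 were there. Protocadherins, cell adhesion proteins of neurons, had 29 of 35 at the floor and voltage-gated sodium channels 9 of 11. Hox genes, which set position along the body axis, had 27 of 33, and Hoxa5 was the brightest of the remaining 6 at 5.11 ± 0.19. Vomeronasal receptors, which sense pheromones, had 25 of 32 at the floor, but chemosensory families resemble the olfactory receptors that set the rule. Defensins, antimicrobial peptides of epithelia, had 16 of 23, and keratin-associated proteins of hair had 26 of 38. Some other families of development and of nerve cells lay nearer the 28.1% of all genes. Wnt ligands had 7 of 19 at the floor, Pax and Nkx factors 9 of 20 and ionotropic glutamate receptors 8 of 18. Families were taken by gene symbol, and the last one counts Grina and Grid2ip, which are not receptor subunits and were not at the floor.

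**Figure D2:**
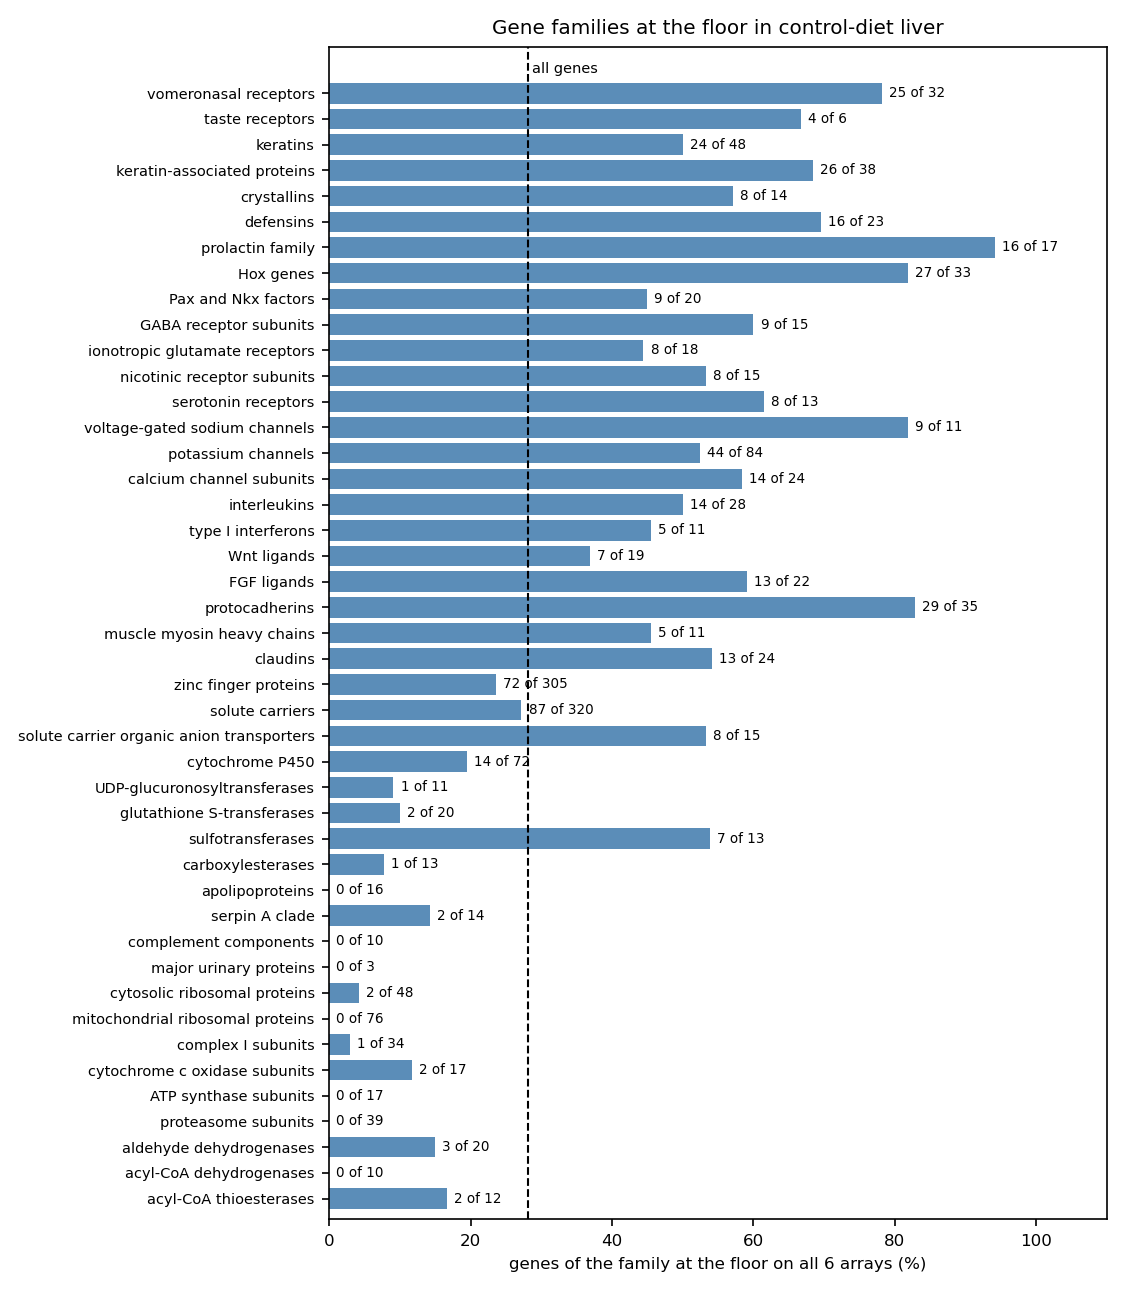
Percent of the measured genes of each family (x axis) that lay at the floor on all 6 arrays, by family (y axis), with the counts beside the bars and the dashed line at the 28.1% of all genes. Prolactin, protocadherin, Hox and sodium channel families reach furthest to the right, and apolipoproteins, proteasome subunits and mitochondrial ribosomal proteins stand at 0. Families were taken by gene symbol, so some bars count other genes. Examples are the receptor genes Ifnar1 and Ifnar2 among type I interferons and the nonmuscle Myh9, Myh10 and Myh14 among muscle myosins.

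Other families were split, with liver members standing out. Keratins, filament proteins of epithelia, had 24 of 48 genes at the floor, while the hepatocyte keratins Krt18 (9.23 ± 0.10) and Krt8 (8.50 ± 0.12) were bright. Among fibroblast growth factors 13 of 22 were at the floor. Fgf1 lay at 7.45 ± 0.13, and Fgf21, a hormone that hepatocytes release in fasting and other metabolic stress, lay at 6.33 ± 0.75. Interleukins had 14 of 28 at the floor, with Il18, which macrophages and other cells make, brightest at 6.65 ± 0.17. Claudins, the sealing proteins of tight junctions, had 13 of 24 at the floor, and Cldn12 lay at 9.31 ± 0.08. Potassium channels had 44 of 84 at the floor and calcium channel subunits 14 of 24. Sulfotransferases (7 of 13) and organic anion transporters of the Slco type (8 of 15) also had many members at the floor, although both families hold well-known liver genes.

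Families that hepatocytes use were rarely at the floor. Apolipoproteins (0 of 16), complement components (0 of 10), acyl-CoA dehydrogenases (0 of 10), ATP synthase subunits (0 of 17), proteasome subunits (0 of 39) and mitochondrial ribosomal proteins (0 of 76) had no member there. Cytochrome P450 genes had 14 of 72 at the floor, UDP-glucuronosyltransferases 1 of 11 and glutathione transferases 2 of 20. Solute carriers (87 of 320) and zinc finger proteins (72 of 305) were close to the share of all genes.

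Markers of other cell types of the liver were measured at modest levels. Of 15 Kupffer cell and macrophage markers 1, Marco, was at the floor, and Clec4f, a lectin of Kupffer cells, lay at 7.71 ± 0.14. None of 16 endothelial markers was at the floor, with Clec4g, a lectin of sinusoidal endothelium, at 8.35 ± 0.10. None of 16 stellate cell and fibroblast markers was at the floor, with the matrix proteoglycan Dcn at 8.65 ± 0.14. Their summed shares were 0.101% to 0.116%, 0.0499% to 0.0555% and 0.0771% to 0.101% of the signal, the last highest in mouse 2. Cholangiocyte markers had 4 of 9 at the floor, including Krt19 and Cftr, and their sum was 0.0102% to 0.0117%. Most of that sum was the marker Aqp1, with deposited intensities of 139 to 241. Those of Epcam, Sox9, Krt7 and Cldn4 were 13.3 or less.

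Markers of neighbouring organs and of blood were at the floor in part. At the floor were 5 of 15 markers of T, B and NK cells (Cd3g, Cd4, Cd8b1, Ms4a1 and Nkg7), 4 of 12 of neutrophils, 6 of 16 of exocrine pancreas, 6 of 10 of gut epithelium and 7 of 13 of muscle. For the blood cell and pancreas lists these counts are close to the 28.1% of all genes. Summed shares ran from 0.0264% to 0.0298% for pancreas and from 0.00165% to 0.00261% for muscle, with no mouse far from the rest. Nearly all of the pancreas sum was Cela1, an elastase gene, with 0.0228% to 0.0266%. The adipocyte sum, 0.397% to 0.460%, was nearly all Car3, which liver itself expresses, and Adipoq, Lep and Ucp1 were at the floor. Of 24 cell cycle genes, 7 were at the floor, close to the 28.1% of all genes, among them Mki67, Top2a and Plk1.

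Genes were called varying when their SD between mice was at least 3 times the median SD of genes of nearest signal. Of 13078 genes not at the floor, 129 (0.986%) met this rule. The rule used these SDs, so the values of its members are a description. Just inside the threshold lay Resf1 (3.01), Idi1 (3.01) and Inhbb (3.03), and just outside Abcg4 (2.997), Nudt7 (2.98) and E2f5 (2.98). Of genes at levels of 2 to 4, 16 (0.373%) were varying. The count was 34 (0.866%) at 4 to 6, 34 (1.18%) at 6 to 8, 34 (3.13%) at 8 to 10 and 11 (3.16%) at 10 to 12, and none of the 55 genes at 12 to 14 was among them. Counts by list below stand beside the 0.986% of all genes. Many lists hold bright genes, for which the share at 8 to 12 was higher, and no list was matched for signal.

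**Figure D3:**
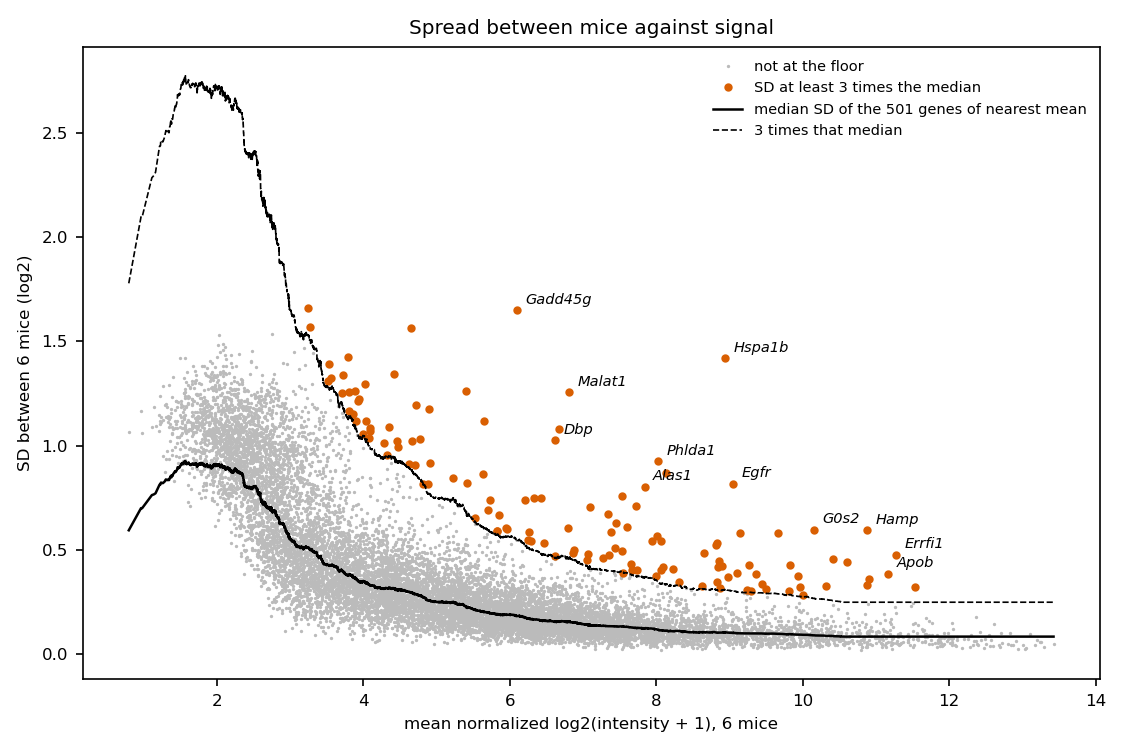
SD between the 6 mice (y axis, log2) against mean normalized log2(intensity + 1) (x axis) for 13078 genes not at the floor, with the median SD of genes of nearest mean as a solid line and 3 times that median dashed. The 129 varying genes are orange, and Hspa1b and Gadd45g lie farthest above the dashed line.

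The same measure was taken in mice that the control values did not use. From the spread within the 3 quercetin groups, 163 of the same 13078 genes (1.25%) reached a ratio of 3. In both sets 52 genes (0.398%) did so, which is 40.3% of the 129 and 31.9% of the 163. Of the 129 genes, 124 had a ratio above 1 in the quercetin groups, with a median of 2.55. In control mice 6995 of all 13078 genes had a ratio above 1, with a median of 1.03. The share of all genes above 1 in the quercetin groups was not counted. The quercetin ratio is given in brackets below as the ratio elsewhere. It pools the 3 groups and does not show which of them spread most.

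The highest SD ratio belonged to a heat shock gene. Hspa1b, the stress-inducible Hsp70 chaperone, had levels of 8.42, 11.67, 8.67, 9.10, 7.69 and 8.09 in mice 1 to 6, with an SD ratio of 13.81 (elsewhere 6.83). Mouse 2 was far above the other 5, and the highest and lowest mice differed 15.8-fold. Without mouse 2 the ratio was 5.33. All 3 probe sets of Hspa1b were highest in mouse 2 and lowest in mouse 5.

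Of 20 measured heat shock genes, none at the floor, 10 were varying, 6 of them also elsewhere, and their median ratio was 3.19. Mouse 2 was highest for 19 of the 20, against 17.3% of all 13078 genes, and mouse 5 was lowest for 12, against 15.2%. Levels of Hsph1, an Hsp70 exchange factor, were 7.63, 9.14, 7.57, 7.33, 7.24 and 7.44. Those of Dnajb1, an Hsp40 co-chaperone, were 7.49, 9.03, 7.30, 7.27, 6.90 and 7.20, and those of Hsp90aa1, the inducible Hsp90, were 9.56, 10.82, 9.48, 9.58, 9.26 and 9.29. In all 3 genes mouse 2 stood alone and the other 5 mice lay close together. Hspa8, the constitutive member of the Hsp70 family, was at 11.58 in mouse 2 and at 10.58 to 10.91 in the others. Hspa4, an Hsp70-related exchange factor, did not share the pattern, with levels from 7.76 to 7.97 and a ratio of 0.59. The mitochondrial chaperones Hspd1 and Hspe1 had ratios of 2.07 and 1.37.

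The heat shock count rested on mouse 2. Without it 1 of these genes was varying, and without mice 2 and 6 there were 2. Ratios then were 1.44 for Hsph1, 1.67 for Hsp90aa1, 1.71 for Dnajb1 and 1.95 for Hspa1a with mouse 2 alone left out. The summed share of the list was 0.791% in mouse 2 and lowest in mouse 5, at 0.347%. Many endoplasmic reticulum chaperone and stromal genes, but not all, were also high in mouse 2. Mouse 2 was highest for 9 of 16 stellate cell and fibroblast markers, against 17.3% of all genes, and 1 of the 16 was varying. Col3a1, a fibrillar collagen of stellate cells and fibroblasts, was at 8.53 in mouse 2 against 6.92 to 7.42, with a ratio of 1.40 without mouse 2, and Lum, a matrix proteoglycan, at 6.64 against 5.77 to 6.05. The part of these in the heat shock values was not tested.

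The 250 bases upstream of the Hsp70 genes are shown because Hspa1b had the highest SD ratio, and because the likeness of the copies bears on how their probe sets can be read. Hspa1a levels were 3.96, 7.62, 4.57, 4.74, 3.12 and 3.89, and the value of mouse 5 is below the floor. Sequences are from RefSeq on GRCm38.p6, minus strand of chromosome 17, at chr17:34959239-34959488 for Hspa1b and chr17:34972157-34972406 for Hspa1a. They differed at 3 of 250 bases, and probe sets of such copies may share signal. Capitals mark GAA and TTC units of a pair of adjoining heat shock factor half-sites, and the third line is a 30-base stretch around the 3-unit motif of Hsph1 on the minus strand at chr5:149636279-149636308, just after its annotated start.
Hspa1b: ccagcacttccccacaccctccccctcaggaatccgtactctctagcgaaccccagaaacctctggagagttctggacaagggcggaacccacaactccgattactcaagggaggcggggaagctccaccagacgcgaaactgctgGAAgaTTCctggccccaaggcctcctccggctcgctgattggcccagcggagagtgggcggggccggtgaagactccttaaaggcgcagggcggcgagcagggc
Hspa1a: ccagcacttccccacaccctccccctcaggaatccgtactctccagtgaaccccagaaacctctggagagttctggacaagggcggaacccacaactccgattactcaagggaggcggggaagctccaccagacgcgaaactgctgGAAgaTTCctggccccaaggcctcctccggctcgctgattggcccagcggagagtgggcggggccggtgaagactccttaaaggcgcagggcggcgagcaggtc
Hsph1: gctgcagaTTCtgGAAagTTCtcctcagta

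Heat shock factor binds repeated GAA units in alternating orientation. A motif of 3 units (GAANNTTCNNGAA, either strand) was found in the 300-base start windows of 4 of 17 heat shock genes with a window, 1 of 8 varying and 3 of 9 others, and in 0.609% of 14449 measured genes. Among these others, Hspd1 and Hspe1 have overlapping windows on opposite strands, and the same stretch was counted for both. Motifs of 2 units (GAANNTTC or TTCNNGAA, which the longer motif contains) were found in 12 of 17, 7 of 8 varying and 5 of 9 others, and in 15.0% of measured genes and 15.1% of all 32841 windows. The motifs were chosen after the values were seen. A match is a description of the letters in this window and says nothing on whether the factor was bound.

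The unfolded protein response, by which the endoplasmic reticulum adjusts its chaperones, had 4 varying genes of 27, against 0.986% of all genes. Herpud1, which takes part in degradation of misfolded proteins, had levels of 10.49, 11.26, 9.92, 10.83, 10.50 and 10.66 and a ratio of 5.33 (elsewhere 3.04). Creld2, an endoplasmic reticulum stress gene, was at 8.61 in mouse 2 and between 6.91 and 7.96 in the others, and Manf and Dnajb9 were also highest there. Mouse 2 was highest for 16 of the 27 genes, against 17.3% of all genes. Without mouse 2 there were 3 varying genes, with Creld2 at a ratio of 3.29 and Manf at 2.48, and without mouse 5 there were 2.

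**Figure D4:**
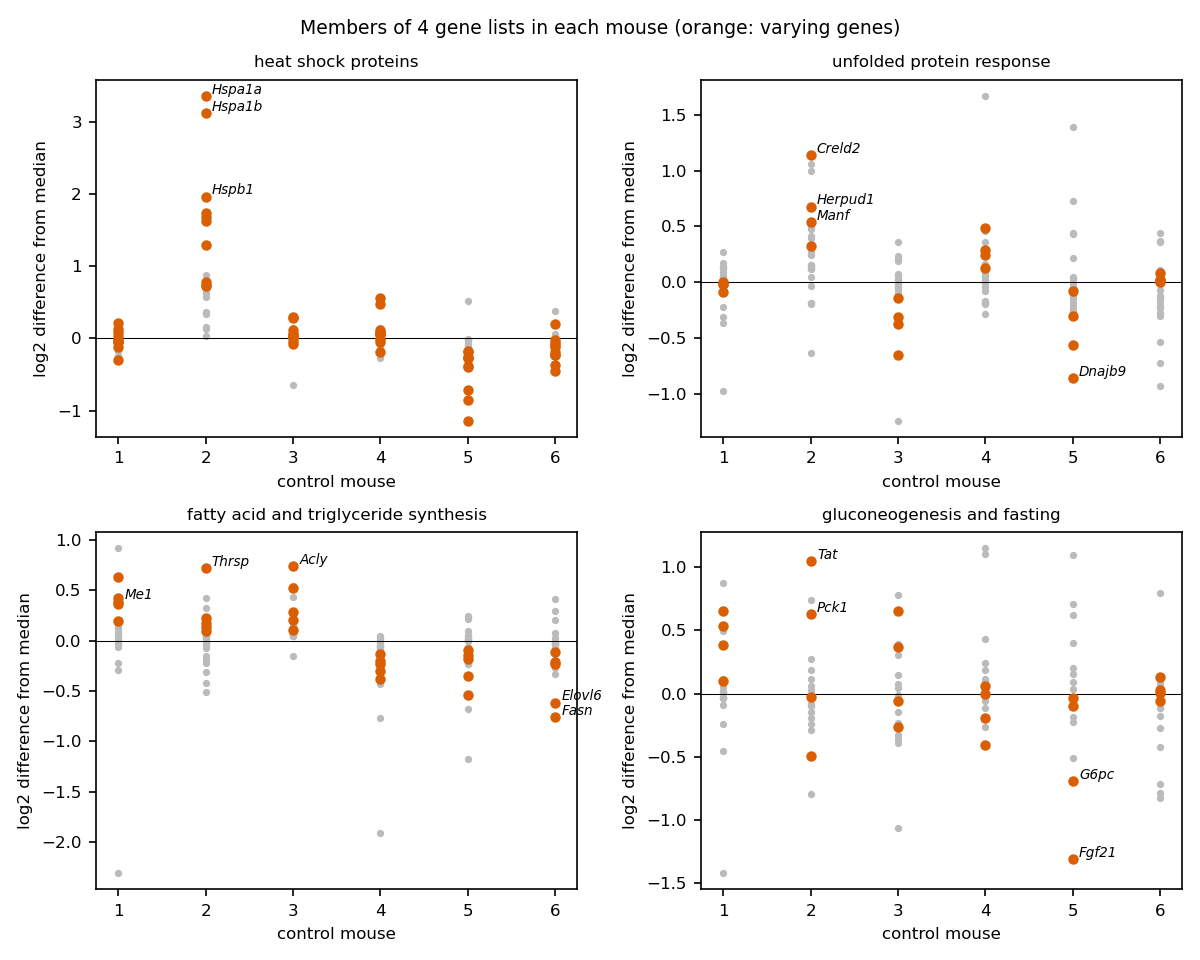
Log2 difference of each gene from its median over the 6 mice (y axis) by mouse (x axis) for 4 gene lists, with varying genes in orange and other members not at the floor in grey. Heat shock genes are high in mouse 2, and in the lipid synthesis panel the orange points lie above 0 in mice 1, 2 and 3 and below 0 in mice 4, 5 and 6.

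Mice 2 and 5 were high together for 3 of the most varying genes, picked after their values were seen. Gadd45g, a growth arrest gene induced by stress, had levels of 4.63, 7.92, 5.39, 4.47, 8.32 and 5.88 and a ratio of 9.10 (elsewhere 6.61). Mice 2 and 5 were high and did not overlap the other 4. Phlda1, a growth factor response gene, was at 9.10 and 9.28 in mice 2 and 5 and between 7.13 and 7.73 in the others, with a ratio of 7.99 (elsewhere 6.06). Errfi1, an inhibitor of the EGF receptor, was at 11.94 and 11.67 in these mice and between 10.75 and 11.32 in the others, with a ratio of 5.76 (elsewhere 1.94).

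Angptl8 and G0s2 were low where Phlda1 was high. Angptl8, a feeding-induced regulator of lipoprotein lipase, had levels of 8.74, 7.03, 8.54, 8.996, 7.05 and 8.45, a ratio of 7.83 (elsewhere 3.01). G0s2, an inhibitor of triglyceride lipase, had levels of 10.69, 9.90, 10.37, 10.67, 9.10 and 10.23, a ratio of 6.73 (elsewhere 9.25). Mice 2 and 5 were the lowest pair for both genes. Grouping mice 2 and 5 came from these values and was not tested. It did not extend to the list of glucocorticoid and stress genes. In that list mouse 2 was highest for 7 of 18 and mouse 5 for 1, against 17.3% and 17.2% of all genes. That list had 4 varying genes (Gadd45g, Tat, Arrdc3 and Pck1), and 2 without mouse 2.

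**Figure D5:**
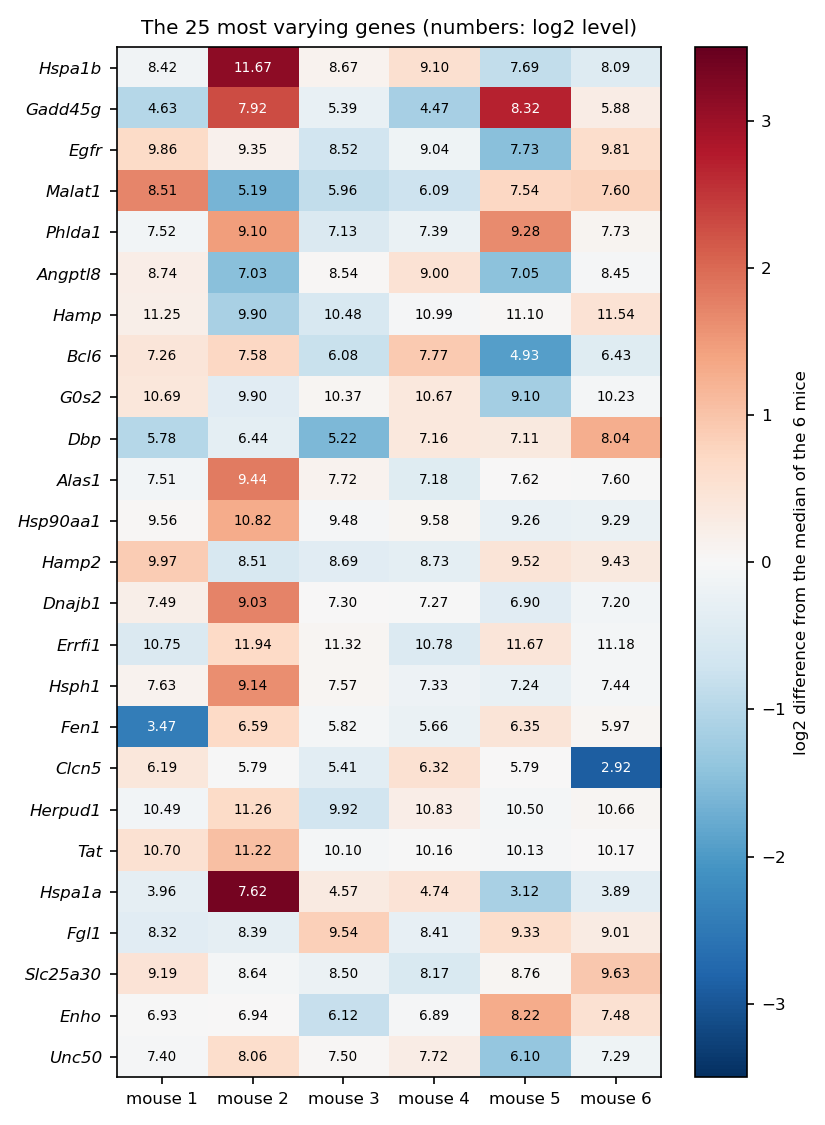
Normalized log2 levels (printed numbers) of the 25 most varying genes (rows) in the 6 mice (columns), coloured by the difference from each gene's median. Hspa1b, Hspa1a, Dnajb1, Hsph1 and Alas1 are high in mouse 2, Gadd45g and Phlda1 in mice 2 and 5.

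Signalling genes downstream of growth hormone and growth factors varied too, 4 of 20 in the list, against 0.986% of all genes. All 4 were also varying elsewhere. Without mouse 3 there were 7 varying genes in the list. Egfr, the EGF receptor gene, was at 9.86, 9.35, 8.52, 9.04, 7.73 and 9.81 with a ratio of 8.15 (elsewhere 6.45). Mouse 5 was lowest and mice 1 and 6 highest. Of the other Egfr probe sets, 2 followed the one used (correlations 0.995 and 0.951), and 1 at 8.31 had an SD of only 0.15 and a correlation of 0.186 with the probe set used. Bcl6, a repressor that growth hormone lowers in male liver, was at 4.93 in mouse 5 and at 7.77 in mouse 4, a ratio of 6.99 (elsewhere 3.15). Socs2 and Socs3, feedback inhibitors of cytokine receptors, had ratios of 3.59 and 3.49. Socs2 was highest in mouse 6 (6.41) and Socs3 in mouse 5 (6.42), and without those mice their ratios were 2.18 and 1.92.

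Genes of glucose production and fasting gave 4 varying of 19, against 0.986% of all genes. Tat, which breaks down tyrosine and is a glucocorticoid target, was at 10.70 in mouse 1, 11.22 in mouse 2 and 10.10 to 10.17 in the other 4, a ratio of 5.32 (elsewhere 3.41). Pck1, the enzyme that commits carbon to glucose synthesis, was also highest in mouse 2 (10.89, against 9.998 to 10.40), and its ratio of 3.73 was 2.11 without that mouse. For Tat the ratio without mouse 2 was 3.03. G6pc, the last enzyme of that route, was at 10.27, 9.86, 10.25, 9.47, 9.19 and 9.91, and its order differed from that of Pck1 (Pearson r = 0.127, exact permutation p = 0.875, n = 6). Fgf21 ranged from 5.10 in mouse 5 to 7.07 in mice 1 and 3, a ratio of 4.53 (elsewhere 3.90).

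Several varying genes of fat and sterol synthesis were higher in mice 1, 2 and 3 than in the others. Fasn, fatty acid synthase, was at 9.05, 8.87, 9.22, 8.31, 8.51 and 7.93 with a ratio of 4.66 (elsewhere 4.25). Acly, which supplies it with acetyl-CoA, was at 9.35, 8.82, 9.46, 8.42, 8.63 and 8.49 with a ratio of 4.37 (elsewhere 3.86). Mice 1, 2 and 3 did not overlap mice 4, 5 and 6 in either gene. Elovl6, Me1 and Thrsp, which elongate fatty acids, supply NADPH and promote lipogenesis, were varying with the same split. In all, 5 of 26 genes of the list were varying, against 0.986% of all genes. Srebf1, the lipogenic transcription factor, was not among them and was lowest in mouse 2 (7.77, against 8.01 to 8.44). With arrays centred on their medians there were 3, and with the median of each gene's probe sets 2. In the cholesterol synthesis list 3 of 20 were varying, the enzymes Fdps and Idi1 and the sterol sensor partner Insig1. Fdps was at 9.31, 9.10 and 9.49 in mice 1 to 3 and at 8.64 to 8.69 in mice 4 to 6. Insig1 did not follow the split, with mouse 3 at 7.32 and mouse 5 at 7.51. Without mouse 6 this count was 1 of 20, and the ratios of Insig1, Idi1 and Elovl6 were 2.55, 2.63 and 2.97. With the median of each gene's probe sets it was also 1. Control probe sets that compare the 3' and 5' ends of a transcript, a sign of RNA quality, separated the same mice. Pyruvate carboxylase ratios were 6.01, 6.41 and 6.85 in mice 1 to 3 and 9.04, 10.8 and 7.87 in mice 4 to 6. Actin ratios were 1.76 to 1.93 against 1.995 to 2.08, and Gapdh ratios 0.751 to 0.758 against 0.778 to 0.842. The part of RNA quality in the lipid values was not tested. The split was seen in the values, and no label used here gives it a meaning. How many of the 26 genes, or of all genes, separate these mice in the same way was not counted.

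Genes of fatty acid oxidation gave 3 varying of 29, against 0.986% of all genes, and none of the 3 was varying elsewhere. Cpt1a, the carnitine transferase that admits fatty acids to mitochondria, was at 8.73 in mouse 5 and at 9.01 to 9.51 in the others. Vnn1, a pantetheinase and PPAR-alpha target, was highest in mouse 4 (7.26), and its ratio was 1.63 without that mouse. Mouse 4 was highest for 15 of the 29 genes, against 15.8% of all genes. Acot3, a peroxisomal thioesterase, was at 1.89 in mouse 5 and between 4.30 and 5.65 in the others, and the first value is below the floor. Without mouse 5 the count was 1 of 29, with ratios of 1.98 for Cpt1a and 2.32 for Acot3, and with the median of each gene's probe sets it was also 1.

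Iron genes centred on hepcidin. Hamp, the liver hormone that limits iron export, was at 11.25, 9.90, 10.48, 10.99, 11.10 and 11.54 with a ratio of 7.19 (elsewhere 2.88). Mouse 2 was lowest, and both probe sets gave the same order at the ends (correlation 0.998). Hamp2, a close copy whose probe set may share signal with Hamp, was also lowest in mouse 2 (8.51) with mouse 1 highest (9.97). Slc40a1, the iron exporter on which hepcidin acts, was lowest in mouse 3 (8.74), and Smad7, an inhibitor of the BMP pathway that drives Hamp, was also lowest there (2.62, below the floor). Without mouse 3 their ratios were 1.479 and 1.74, and 2 of 21 metal genes in place of 4 were varying. Without mouse 2 the ratio of Hamp was 5.06.

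Bile acid genes gave 3 varying of 21, against 0.986% of all genes. Cyp7a1, the rate-limiting enzyme of bile acid synthesis, was at 5.35, 3.95, 3.24, 5.66, 3.89 and 6.27 with a ratio of 4.19 (elsewhere 2.43). The value of mouse 3 is below the floor, and among genes above the floor on all 6 arrays the count of varying bile acid genes was 2. Nr0b2, a repressor of Cyp7a1, was at 9.30, 8.54, 9.31, 9.55, 8.72 and 9.20. Their correlation was 0.494 over the 6 mice (exact permutation p = 0.356, two-sided). Cyp7b1, the oxysterol hydroxylase, was highest in mouse 2 (11.24) and lowest in mouse 3 (10.36).

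The clock list had 1 varying gene of 21, against 0.986% of all genes. Dbp, an output of the circadian clock with a strong daily rhythm in liver, was at 5.78, 6.44, 5.22, 7.16, 7.11 and 8.04, a 7.11-fold range and a ratio of 6.66 (elsewhere 5.20). Its second probe set was likewise lowest in mouse 3 and highest in mouse 6 (correlation 0.983). Arntl, the clock activator, lay between 5.43 and 6.05 with a ratio of 1.196. Arntl and Dbp had a correlation of -0.569 over the 6 mice (exact permutation p = 0.25, two-sided).

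Several liver enzymes and RNAs varied singly. Alas1, the first enzyme of heme synthesis, was at 7.51, 9.44, 7.72, 7.18, 7.62 and 7.60, and its ratio of 6.53 (elsewhere 4.09) became 1.76 without mouse 2. A second, dim probe set of Alas1 did not follow it (correlation -0.195). Apob, the structural protein of very-low-density lipoprotein, was at 10.48 in mouse 6 and at 11.08 to 11.57 in the others, a ratio of 4.66 (elsewhere 3.24), and 2.59 without mouse 6. Among P450 genes 3 of 41 were varying, against 0.986% of all genes. These were Cyp2c39, Cyp2c38 and Cyp2b9, and all 3 were varying elsewhere. Without mouse 3 the count was 1, with Cyp2c38 at a ratio of 2.63 and Cyp2b9 at 2.41 (2.49 without mouse 6). Cyp2c39 and Cyp2c38 were highest in mouse 3 (8.80 and 7.94) and lowest in mouse 2 (7.32 and 6.64), and probe sets of such close relatives may share signal. Malat1, a nuclear long noncoding RNA, was at 8.51 in mouse 1 and 5.19 in mouse 2, a ratio of 8.14 (elsewhere 3.69). The probe set used had an SD of 1.26, and the next brightest had SDs of 0.66 and 0.65. With the median of its probe sets the ratio of Malat1 was 0.90, so this call was lost.

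Some calls rested on 1 mouse and 1 probe set. Fen1, a DNA repair nuclease, was at 3.47 in mouse 1 and at 5.66 to 6.59 in the others, and its ratio was 2.07 without mouse 1. Its second probe set, with a mean of 3.38, was too near the floor to bear on this. Clcn5, a chloride transporter, was at 2.92 (below the floor) in mouse 6 and 5.41 to 6.32 in the others, and Unc50 was at 6.10 in mouse 5 and 7.29 to 8.06 in the others. Their ratios were 1.98 without mouse 6 and 2.38 without mouse 5. The brightest other probe set of Clcn5, with a mean of 4.41, had an SD of 0.20, and that of Unc50, with a mean of 7.16, had an SD of 0.16.

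Among lists of function, those with no varying gene were hepatocyte plasma proteins (22 genes), coagulation and complement (27), glycolysis and glycogen (12), Nrf2 and antioxidant genes (25) and interferon response and antigen presentation (29). Among cell type lists, endothelial cells (16), cholangiocytes (5), T, B and NK cells (10), neutrophils (8), erythroid cells (6), exocrine pancreas (10), gut epithelium (4), adipocytes (5) and muscle (6) also had none among their genes not at the floor. With 0.986% of all genes varying, having none in lists of 4 to 29 genes is close to that share. No result about their members follows. The acute phase list gave 2 of 23, Hamp and Saa1. Saa1, a serum amyloid, was at 9.40 and 9.33 in mice 2 and 4 and at 8.50 to 8.80 in the others.

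The mouse farthest from the median differed by gene. Mouse 2 was farthest for 44 of the 129 varying genes (26 above, 18 below) and mouse 6 for 28 (5 above, 23 below). Mouse 3 was farthest for 20, mouse 5 for 18, mouse 1 for 12 and mouse 4 for 7. Each of the 6 mice was thus the extreme for at least 7 genes.

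The converse pattern was seen in 111 genes that reached a ratio of 3 within the quercetin groups and stayed under it in control mice. The examples here were chosen after their values were seen. Mt1 and Mt2, the metal-binding metallothioneins, had control SDs of 0.42 and 0.59 (ratios 1.73 and 1.83) and ratios elsewhere of 14.90 and 13.45. For Mt1 the SD within the 0.1% group was 0.55, close to that in control mice, while it was 3.49 within the 0.5% group and 2.29 within the 1.0% group. Igfbp1, an insulin-repressed binding protein of growth factors, had a control ratio of 2.76 and 11.27 elsewhere. Its SDs were 0.59, 2.57 and 1.65 within the 0.1%, 0.5% and 1.0% groups. The immediate early factor Egr1 had ratios of 2.10 and 7.43, with SDs of 0.29, 2.86 and 0.72 within the 3 groups in the same order. The metalloreductase Steap4 had ratios of 1.18 and 6.99, with SDs of 0.22, 1.43 and 1.25. Whether spread differed between diets was not tested.

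Of 18 gene pairs listed for their known biology, 17 were measured and none correlated at an adjusted p under 0.05 across the 6 mice (exact permutation tests, two-sided, Benjamini-Hochberg over 17 pairs, lowest adjusted p = 0.331 for Pearson and 0.283 for Spearman correlations). With 6 mice the smallest p is 0.00278. Igfbp1 and Lpin1, both raised in fasting, had the only unadjusted p under 0.05 (Pearson r = 0.864, exact permutation p = 0.0306, and Spearman rho = 0.943, exact permutation p = 0.0167). The correlation was 0.731 without the 2 mice farthest from the median of Igfbp1. Within the 0.1%, 0.5% and 1.0% quercetin groups the Pearson r of this pair was -0.477, 0.983 and 0.524. Dnajb1 and Hspb1 had r = 0.970 (exact permutation p = 0.0694), and -0.041 once mice 2 and 5 were left out. Within the 3 quercetin groups their r was -0.763, 0.708 and -0.719. Hspa5, the main chaperone of the endoplasmic reticulum, and Herpud1 had r = 0.774 (exact permutation p = 0.0778), and 0.739, 0.611 and 0.657 within the 3 quercetin groups. Mt1 and Mt2 had r = 0.575 in control mice, and 0.474, 0.999 and 0.9997 within the 3 quercetin groups.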

How the data were processed

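Total liver RNA was, per the labels' protocols, copied to biotin-labelled cRNA and hybridized to 1 Affymetrix array per mouse. The authors deposited 1 table of linear intensity values for 45101 probe sets and 24 arrays. How background was corrected and probes were summarised is not given in the sources used here, nor is the software. Of the probe sets, 34945 had 1 gene symbol in the platform annotation, 932 had several and 9211 were not listed, and 64 control probe sets were left out. RefSeq (GRCm38.p6) gene IDs matched 34741 probe sets and changed 0 symbols.

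Values were taken as log2(intensity + 1), with a pseudocount of 1, and quantile-normalized over the 24 arrays. A gene was represented by its probe set of highest mean over the 24 arrays. Shares of signal used the deposited intensities. Precision is limited by the number of arrays.

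Of 746 genes in 36 lists, 654 were measured. Genes were named by rule: the 25 brightest, the 25 most varying, the 10 steadiest of the 500 brightest, up to 4 of each list by SD ratio, the brightest markers of cell types, up to 3 of each family by mean, and all gene pairs. Other named genes were chosen after their values were seen. The members and lists were chosen with earlier results of these data known. The spread measure was tested on simulated data. In 6 arrays it recovered 44% of genes given 3 times the usual spread and 97% of those given 6 times, and called 4 of 17993 unchanged genes. Unchanged genes of like signal all had the same normal spread there. Wider spread was given only to genes at levels above 4, and no floor filter was applied. Real genes of like signal need not share 1 spread, so the simulation cannot say how many calls in the real data are due to chance. Pairs were tested by exact permutation. Python 3.11.15, numpy 2.4.6, scipy 1.17.1 and pandas 2.3.3 were used. Alternatives covered normalization, pseudocount, probe set choice, floor, neighbour number, the measure of spread and each mouse left out. Leaving out mice 2 and 6 together, and counting varying genes by list, were added after the data were seen.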

Additional observations from a re-analysis of the deposited data

Results flagged for a closer look

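In 170 genes examined, 1 mouse stood apart from the other 5 in 22 (12.9%), judged by the gap to the nearest mouse as a share of the range. Chance flags about 1 in 20 groups, and many of the genes were chosen for their spread. Mouse 2 was the lone mouse in 10 of the 22, mouse 3 in 5, mouse 1 in 3, mice 5 and 6 in 2 each and mouse 4 in 0.

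Mouse 2 was above the rest for heat shock genes, with a gap of 0.793 of the range for Hsph1, 0.793 for Hsp90aa1, 0.721 for Dnajb1, 0.645 for Hspa1b and 0.641 for Hspa1a. It was also above for Alas1 (0.761), Cyp2e1 (0.78, a gap of 0.08 log2) and the stromal genes Col3a1 (0.691) and Lum (0.682), and below for Abcd2 (0.642), a peroxisomal fatty acid transporter. Mouse 3 was below the rest for Il1rn (0.745), Ttr (0.695), B2m (0.654) and Gstp1 (0.635), and above for Fgb (0.647). Mouse 1 was below for Fen1 (0.701), Cidec (0.695) and Cd79b (0.664). Mouse 5 was below for Cel (0.668) and Acot3 (0.641). Mouse 6 was below for Clcn5 (0.733) and above for Serpina1b (0.742, a gap of 0.05 log2).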

How the results depend on the processing

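The count of 129 varying genes was 17 without normalization between arrays, all 17 among the 129. It was within 1.5 times under the other alternatives, with 70 of the 129 shared under the median absolute deviation and 73 with the median of a gene's probe sets, and from 130 to 156 with 1 mouse left out. The 52 genes varying in both sets became 2 without normalization and 30 with arrays centred on their medians, and 46 to 56 with 1 mouse left out. The 10 varying heat shock genes became 2 without normalization, 2 with the median absolute deviation, 2 without mice 2 and 6, and 1 to 11 with 1 mouse left out. Angptl8, Bcl6, Gadd45g and Hspa1b were called under all 16 alternatives. The 433 genes that held 50% of the signal became 729 with all probe sets, named or not, and 427 to 440 with 1 mouse left out. The 25 brightest genes held 12.1% with the median of a gene's probe sets and 6.83% with all probe sets, and 9.38% to 9.74% with 1 mouse left out. Genes at the floor numbered 4882 to 6719 over the alternatives, and 5206 to 5570 with 1 mouse left out. Of 17 pairs, 1 passed without normalization, Clec4f and Vsig4 (r = 0.883, adjusted exact permutation p = 0.0472), against r = -0.0476 after it. No paired analysis was possible because 1 group was described and the replicate numbers only name mice. Dim genes have large SDs, so that only large differences stand out there.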

Other observations

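Of the 13078 genes not at the floor, mouse 2 was the lowest for 21.1% and mouse 6 the highest for 19.2%. In the cholesterol synthesis list mouse 3 was highest for 8 of 20 genes, against 16.3% of all genes. Mice 4 and 6 were lowest for 8 and 9 of that list, against 13.9% and 17.4% of all genes. The acute phase list was split, with mouse 1 lowest for 8 of 23 genes, against 16.3% of all genes.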
